A study of Capra hircus with 12 samples.

Results

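The genes described here encode proteins of the cytosolic ribosome and the factors that run translation on it. They were taken from the union of the 6 deposited tables by symbol, as every gene named RPL or RPS followed by a letter or digit and every gene named EIF or EEF followed by a digit, with the kinases of the RPS6K family left out. This gave 43 of 4974 genes: 20 proteins of the large subunit, 12 proteins of the small subunit, 8 initiation factors, 2 elongation factors and 1 regulator of initiation. The large subunit was represented by RPL3, RPL4, RPL5, RPL7, RPL7L1, RPL9, RPL17, RPL19, RPL22, RPL23, RPL23A, RPL24, RPL26, RPL27A, RPL34, RPL35A, RPL36, RPL36A, RPL37 and RPL37A, and the small subunit included RPS2, RPS3, RPS3A, RPS6, RPS7, RPS9, RPS12, RPS14, RPS19, RPS21 and RPS27. The initiation factors were EIF1AX, EIF2S2, EIF3D, EIF3E, EIF3M, EIF4A3, EIF4E3 and EIF5B, the elongation factors EEF1A2 and EEF1D, and the regulator EIF4EBP2. Mammary gland biopsies came from lactating goats of the Canary Islands breeds Majorera and Palmera. ME (Majorera) and PE (Palmera) goats were feed-restricted on wheat straw with a vitamin and mineral supplement, and MC (Majorera) and PC (Palmera) goats received an adequate diet. Each group had 3 libraries, each from a different goat. The study described the goats used in its trial as near the peak of lactation. Biopsies were taken at the end of the trial, when milk yield had fallen in both restricted groups. Restricted goats were kept in one pen and control goats in another, and the effects of pen and of diet on these mRNAs cannot be told apart.

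Ribosomes are built from ribosomal RNA and about equal amounts of many ribosomal proteins, the small subunit reading the mRNA and the large subunit joining the amino acids. Initiation factors bring the start codon and the first tRNA together on the small subunit, and elongation factors deliver the tRNAs that follow. In mammals the mRNAs of ribosomal proteins and of several factors start with a tract of pyrimidines through which the kinase complex mTORC1 governs their translation when nutrients change. In the lactating mammary gland most of this capacity is used for caseins and whey proteins, whose mRNAs make up a large part of the poly(A) RNA.

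The values are RSEM expected counts of poly(A) RNA, given as CPM, counts scaled to a common library size, after scaling by mapped reads and by TMM factors (a trimmed mean of log ratios over genes that were not selected for differing). Mapped reads lay between 29.4 and 54.6 M per library and TMM factors between 0.64 and 2.00. The 4 milk genes CSN2, CSN3, CSN1S2 and LALBA held 15.1 to 31.3% of the mapped reads in ME, 30.8 to 39.8% in MC, 12.1 to 25.2% in PE and 41.6 to 67.6% in PC. A level of any other gene therefore depends on how the libraries are scaled, and values under mapped reads alone, and under mapped reads less these 4 genes, are given where they change a result. These genes, which define the lactating gland, were read in every library. Libraries differed in other markers too. Summed over the 9 of 19 macrophage markers counted in all libraries, none of them at 0, the level was 84.8 to 297 CPM in ME, 36.1 to 54.7 CPM in MC, 46.6 to 92.02 CPM in PE and 31.3 to 43.0 CPM in PC, with the highest value in ME replicate 2, the library with the TMM factor of 2.00. Of the myoepithelial and smooth muscle markers, 4 of 11 summed to 64.9 to 95.2 CPM in ME, 162 to 201 CPM in MC, 45.0 to 114 CPM in PE and 104 to 182 CPM in PC. ACTA2 made up most of that sum, and TP63, a marker of basal cells, went the other way, with a log2 fold change of 0.87 under restriction over both breeds (SE 0.17, adjusted p = 0.0186 by edgeR). TP63 had been selected for differing between ME and MC and between PE and PC, and its call reuses those values. The 4 of 9 adipocyte markers summed to 0.466 to 0.795 CPM in ME, 7.49 to 12.5 CPM in MC, 0.412 to 0.817 CPM in PE and 1.25 to 5.10 CPM in PC. The 3 of 15 T and NK cell markers summed to 12.1 to 21.2 CPM in ME, 4.29 to 10.9 CPM in MC, 6.56 to 14.8 CPM in PE and 4.91 to 7.35 CPM in PC. The part of cell composition in the results below was not tested, and in biopsies fewer cells of a type and less RNA per cell cannot be told apart.

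Each table holds only genes that passed an unadjusted p of 0.05 for the pair of groups it compares, so that the presence of a gene in a table is itself a selection and a count of genes in it is read against the whole table. The tables held 31 of the 43 genes for PE against PC, 30 for ME against PC, 5 for PE against MC, 3 for PE against ME, 2 for ME against MC and 2 for PC against MC. All 43 were in the union because some table listed them. In the same order, the tables held 2262, 2282, 1869, 920, 1779 and 755 of the 4974 genes of the union. Counts were known in all 12 libraries for 5 genes (EEF1D, EEF1A2, RPL36A, RPL7 and EIF4EBP2), in 9 libraries for 20 and in 6 libraries for 18. Only 4 of the 32 ribosomal proteins (RPL36A, RPL7, RPL7L1 and RPS2) had counts in MC. Ribosomal protein genes have many near-identical processed copies in mammalian genomes, and how the counting divided reads among copies was not examined, so each of these levels is uncertain in that respect.

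In Palmera goats, the ribosomal protein mRNAs that the table listed, all selected for differing, had higher estimates in PE than in PC on the TMM scale. All 26 ribosomal proteins of the table had a log2 fold change above 0 (0.54 to 1.08, median 0.64, SE 0.17 to 0.32), and so had the 3 initiation factors and the elongation factor EEF1D. At an unadjusted p under 0.05, 28 of the 31 genes were higher in PE and 1 was lower, whereas 48.2% of all genes of the table were higher and 44.9% lower. None of the 31 passed the edgeR quasi-likelihood F test after Benjamini-Hochberg adjustment over all genes tested (adjusted p = 0.115 to 0.369), where 0.00678% of all genes passed, and the DESeq2 Wald test called RPS21 alone (adjusted p = 0.0441), where 1.35% of all genes passed. The direction depended on the scaling: with mapped reads alone 30 of 31 genes stayed above 0 but 1 was higher at p under 0.05, and with mapped reads less the 4 milk genes only 3 of 31 were above 0 (median -0.18), where the median over the table moved by -0.94. In both of these settings the spread was taken wholly from other genes, and that of each gene between goats did not enter. On the TMM scale, leaving out PE replicate 3, PC replicate 1 or PC replicate 3 brought the number of higher genes to 7 each. Leaving out PE replicate 1 brought it to 10. In the same order, 763, 875, 851 and 780 of the 2262 genes of the table were then higher at that p. A scaling by TMM factors computed without the translation genes gave 18, beside 1035 genes of the table.

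Of the large subunit, 17 genes were in this table. RPL36A, a protein of the large subunit with a close paralog, RPL36AL, had the largest fold. Its level was 55.7, 48.0 and 75.4 CPM in PE, against 17.4, 38.3 and 28.9 CPM in PC (log2 fold change 1.08, SE 0.31, unadjusted p = 0.00611). All 3 PE libraries lay above all 3 PC libraries. RPL23A, which sits at the exit of the peptide tunnel where the signal recognition particle docks, had 252, 245 and 286 CPM in PE, against 125, 216 and 93.7 CPM in PC (log2 fold change 0.85, SE 0.32). RPL4, which lines the tunnel, had 479, 443 and 606 CPM in PE, against 272, 397 and 334 CPM in PC, and RPL5, which carries a small ribosomal RNA into the subunit, had 299, 308 and 373 CPM in PE, against 139, 267 and 212 CPM in PC. In each of these genes PC replicate 1 or PC replicate 3 was the lowest library and PC replicate 2 came close to the PE range. RPL22, which also has a paralog, RPL22L1, not among the genes of the tables, had a log2 fold change of 0.58 (SE 0.23).

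RPL7 and RPL7L1 are relatives with different roles, RPL7 being a structural protein and RPL7L1 a protein tied to the making of the subunit. RPL7L1 had 9.63, 7.96 and 9.28 CPM in PE, against 6.32, 5.63 and 6.01 CPM in PC (log2 fold change 0.58, SE 0.17, unadjusted p = 0.00721). RPL7 had 197, 182 and 244 CPM in PE, against 95.6, 177 and 127 CPM in PC (log2 fold change 0.64, SE 0.28, unadjusted p = 0.0464). The groups did not overlap for either gene, but for RPL7 the gap between PE replicate 2 and PC replicate 2 was small beside the spread within PC.

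Of the small subunit, 9 genes were in the table, with log2 fold changes of 0.54 to 0.93. RPS21 had the smallest p of all 31 genes, with 116, 116 and 134 CPM in PE, against 54.6, 55.6 and 82.2 CPM in PC (log2 fold change 0.93, SE 0.23, unadjusted p = 0.00312, adjusted p = 0.115). RPS3A had 343, 278 and 397 CPM in PE, against 141, 254 and 184 CPM in PC (log2 fold change 0.82, SE 0.29). RPS14 had 316, 262 and 372 CPM in PE, against 156, 241 and 150.0 CPM in PC. RPS3, which lies at the entry of the mRNA channel, was at the lower end with 217, 187 and 261 CPM in PE, against 142, 173 and 141 CPM in PC (log2 fold change 0.55, SE 0.23). Over all 31 genes the PE libraries lay above the PC libraries without overlap in 26, against 37.8% of the genes of the table. With mapped reads alone that count was 0, against 328 of the 2262 genes of the table.

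The 4 ribosomal proteins whose groups overlapped were RPL9, RPL26, RPL35A and RPL36, all of the large subunit, and in each the lowest PE library was replicate 2 and the highest PC library replicate 2. RPL36 had 116.8, 92.09 and 143.4 CPM in PE, against 57.5, 105.2 and 63.3 CPM in PC (log2 fold change 0.64, SE 0.29, unadjusted p = 0.0533). RPL9 had 19.9, 14.3 and 22.6 CPM in PE, against 10.3, 15.5 and 11.1 CPM in PC (log2 fold change 0.62, SE 0.23). Each of these genes thus had a mean shift like that of the others and a single pair of libraries out of order. The smallest folds were those of RPS9 (log2 fold change 0.54, SE 0.23), RPS3 and RPS19 (0.55, SE 0.24), and RPL17, RPL27A and RPS7 lay in between at 0.71, 0.67 and 0.69.

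**Figure D1:**
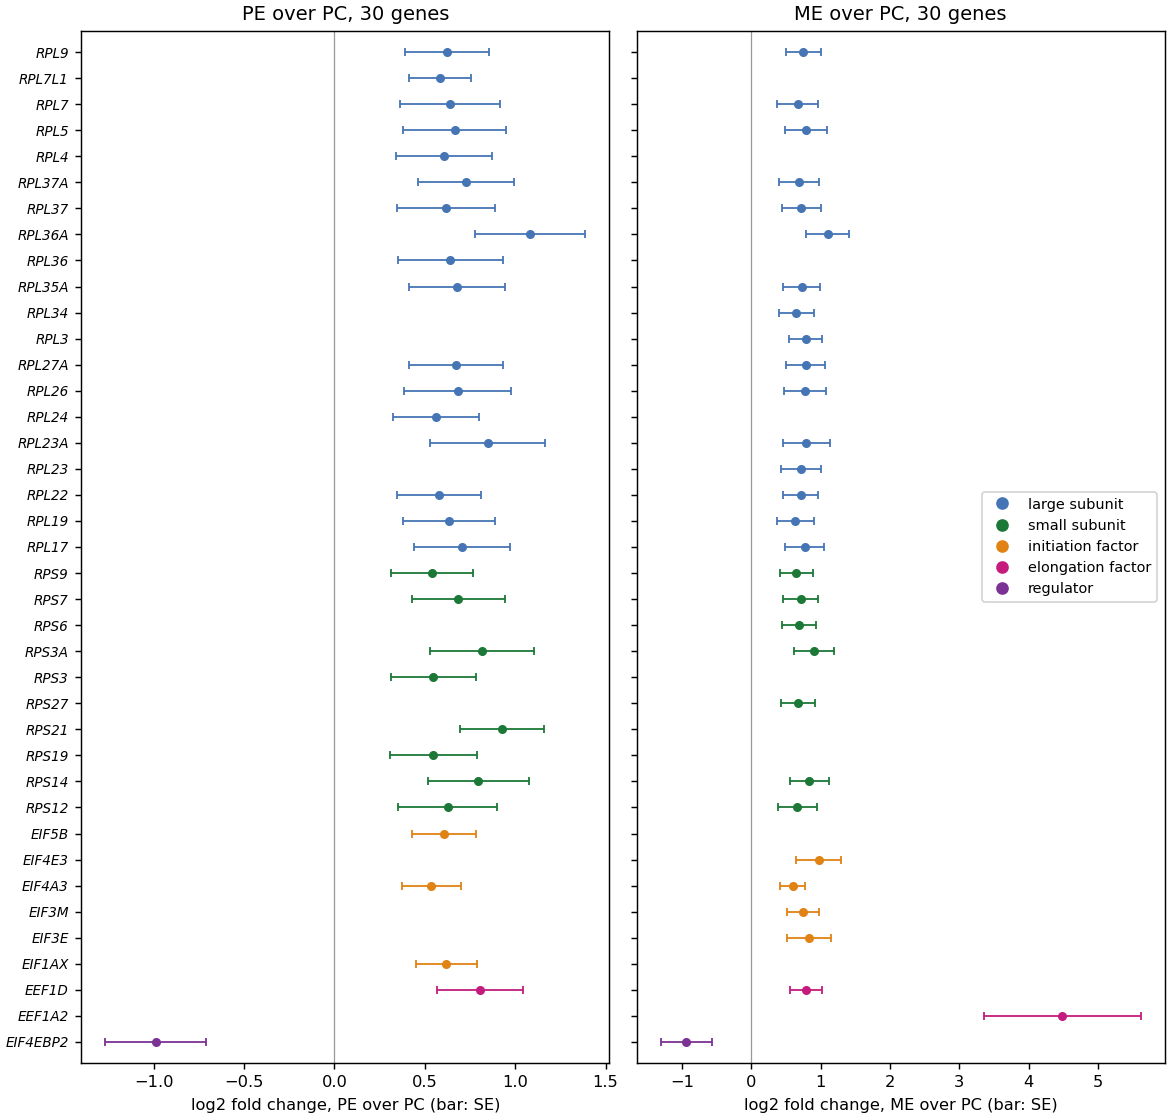
Log2 fold changes (x axis, bars are SE) of the translation genes listed for PE over PC (left, 30 of the 31 genes) and ME over PC (right, 30 genes), 1 gene a line, coloured by role. Ribosomal proteins lie between 0.54 and 1.08 on the left and between 0.63 and 1.10 on the right, and EIF4EBP2 lies below 0 on both sides. Both panels share the PC libraries.

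The initiation factors of this table were EIF1AX, EIF5B and EIF4A3. EIF1AX, which helps the small subunit scan for the start codon, had 9.98, 9.19 and 9.97 CPM in PE, against 6.38, 6.94 and 5.66 CPM in PC (log2 fold change 0.62, SE 0.17, unadjusted p = 0.00485), but its fold was -0.33 with mapped reads less the 4 milk genes. EIF5B, the GTPase that joins the subunits, had 35.5, 30.3 and 34.5 CPM in PE, against 20.5, 24.0 and 21.4 CPM in PC (log2 fold change 0.61, SE 0.18). EIF4A3 is a relative of the initiation helicases that works in the exon junction complex, and had 14.6, 11.8 and 14.1 CPM in PE, against 9.54, 9.57 and 8.90 CPM in PC (log2 fold change 0.54, SE 0.16). In all 3 genes the PE libraries lay apart from the PC libraries on the TMM scale. The log2 fold changes of EIF5B and EIF4A3 were -0.32 and -0.41 with mapped reads less the 4 milk genes.

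ME libraries, set against PC, differed from them in breed and in diet together, and the comparison uses the same PC libraries as the one before. Of the 30 genes of its table, 28 were higher and 1 lower in ME at an unadjusted p under 0.05, against 52.7% and 36.5% of the table. The 23 ribosomal proteins had log2 fold changes of 0.63 to 1.10 (median 0.72), below the median of 0.84 over the table. None of the 30 passed the edgeR test after adjustment (adjusted p = 0.159 to 0.373), and the DESeq2 Wald test called EEF1A2 (adjusted p = 0.00403) and RPL3 (adjusted p = 0.0404), at a rate of 1.40% over all genes. In 29 genes the ME libraries lay above the PC libraries without overlap, as did 43.1% of the table. Here the sign held under every scaling: 29 of 30 genes were above 0 with mapped reads alone and with mapped reads less the 4 milk genes. With mapped reads alone 23 were called after adjustment. At an unadjusted p under 0.05, 1331 of the 2282 genes of the table were then higher and 246 lower. The median was 1.23, beside 1.39 over the table. Less the 4 milk genes the median was 0.48, beside 0.60 over the table, and 1 gene was higher at p under 0.05. In that fit the spread was taken wholly from other genes. On the TMM scale the number of higher genes was 7 without PC replicate 1, 8 without ME replicate 3, 10 without PC replicate 3 and 17 without ME replicate 1. In the same order, 881, 1138, 853 and 1223 of the 2282 genes of the table were then higher.

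Several genes of this comparison have no counts in PE. RPL3, a protein near the site of peptide bond formation, had 282, 238 and 295 CPM in ME, against 147, 175 and 151 CPM in PC (log2 fold change 0.78, SE 0.24). RPS6, the ribosomal protein that S6 kinases phosphorylate below mTORC1, had 203, 191 and 224 CPM in ME, against 106, 151 and 125 CPM in PC (log2 fold change 0.69, SE 0.25). RPS27, which has the paralog RPS27L, had 123, 107 and 128 CPM in ME, against 59.7, 87.2 and 78.1 CPM in PC (log2 fold change 0.67, SE 0.24). All ME libraries lay above all PC libraries in these 3 genes, PC replicate 2 being the highest PC library each time.

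EIF3E and EIF3M encode subunits of the large scaffold factor of initiation, eIF3. EIF3E had 30.5, 43.9 and 46.9 CPM in ME, against 13.9, 29.7 and 24.7 CPM in PC (log2 fold change 0.83, SE 0.32), and EIF3M had 23.3, 22.5 and 29.3 CPM in ME, against 11.6, 17.9 and 15.2 CPM in PC (log2 fold change 0.75, SE 0.23). EIF4E3, a relative of the cap-binding protein, was low throughout with 3.95, 4.56 and 2.74 CPM in ME, against 1.28, 1.78 and 2.67 CPM in PC (log2 fold change 0.97, SE 0.33). Its lowest ME library barely exceeded its highest PC library.

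Across the 18 ribosomal proteins counted in ME, PE and PC, the libraries of a group differed together rather than gene by gene. The 18 had counts in these groups because each was listed for PE against PC and for ME against PC. Higher medians in ME and PE than in PC are thus not independent of that selection. The median log2 level over the PC mean was 0.75, 0.70 and 0.94 in ME, 0.68, 0.50 and 0.93 in PE, and -0.35, 0.38 and -0.02 in PC. PC replicate 2 came close to the lowest PE library, replicate 2, and the PC libraries were spread more widely than those of ME or PE, with a median ratio of the highest to the lowest library of 1.19 in ME, 1.37 in PE and 1.605 in PC. Among all ribosomal proteins with counts in a group, PC replicate 1 was the lowest PC library for 27 of 31 and PC replicate 2 the highest for 29 of 31, PE replicate 2 was the lowest and PE replicate 3 the highest PE library for 24 and 26 of 27, and ME replicate 3 was the highest ME library for 24 of 24. PC replicate 1 was also the library in which the 4 milk genes held 67.6% of the mapped reads, and PE replicate 2 had the highest milk share of PE, 25.2%; their part in these levels was not tested.

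**Figure D2:**
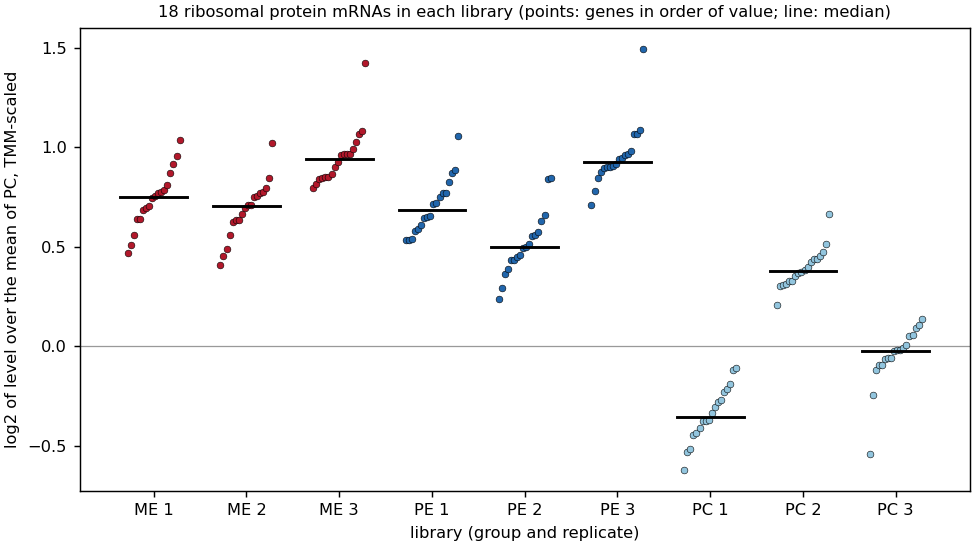
Level of 18 ribosomal protein mRNAs in each ME, PE and PC library (x axis), as log2 over the gene's mean in PC on the TMM scale (y axis), with a point for each gene in order of its value and a line at the median. The medians lie between 0.50 and 0.94 in the ME and PE libraries and at -0.35, 0.38 and -0.02 in PC. The 18 genes were those listed for both PE against PC and ME against PC.

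As a share of all mapped reads, these 18 mRNAs held 0.479, 0.838 and 0.586% in ME, 0.378, 0.242 and 0.699% in PE, and 0.227, 0.309 and 0.264% in PC. All ME libraries were above all PC libraries, while PE replicate 2 fell inside the PC range. The 18 mRNAs had been selected for differing from PC in both comparisons. As a share of the mapped reads left after the 4 milk genes, they held 0.698, 0.987 and 0.774% in ME, 0.429, 0.323 and 0.817% in PE, and 0.6999, 0.576 and 0.451% in PC. On that base ME replicate 1 and PC replicate 1 had about the same share, and PE replicates 1 and 2 were below every PC library.

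**Figure D3:**
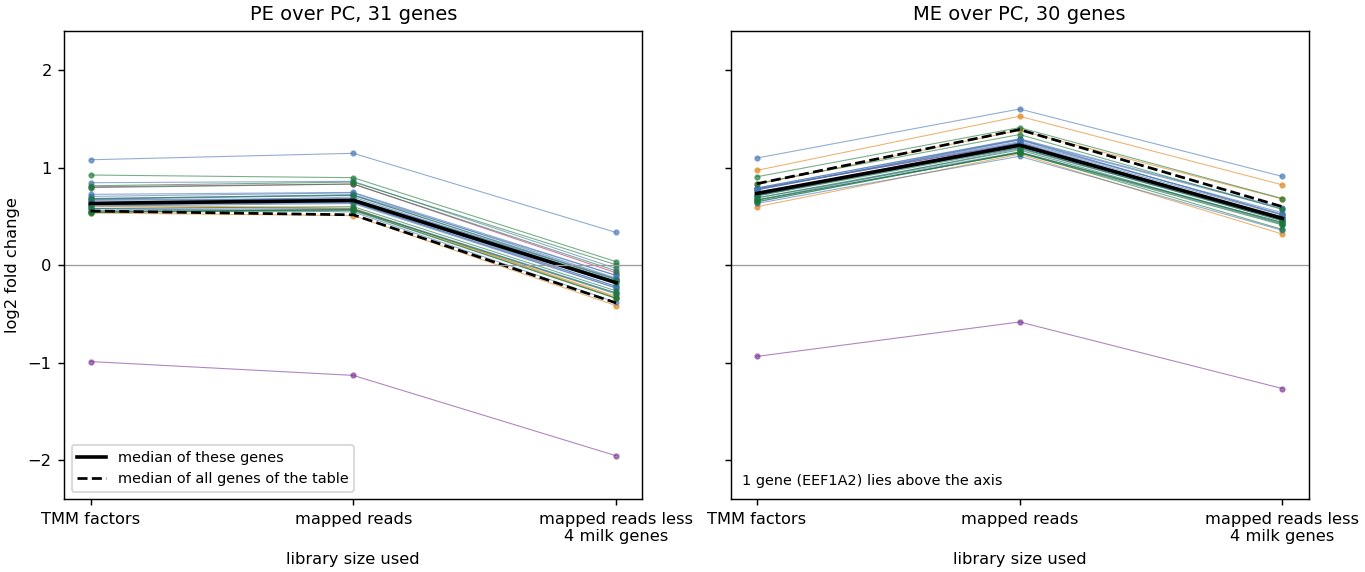
Log2 fold change (y axis) of each translation gene for PE over PC (left) and ME over PC (right) with 3 library sizes (x axis): TMM factors, mapped reads, and mapped reads less CSN2, CSN3, CSN1S2 and LALBA. Thin lines are genes, the solid black line is their median and the dashed line the median of all genes of the table. For PE over PC the median of the translation genes is 0.63, 0.67 and -0.18, and for ME over PC it is 0.74, 1.23 and 0.48. EEF1A2 lies above the axis on the right.

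For PE against ME, the restricted groups of the 2 breeds, no ribosomal protein mRNA with counts in both groups had an unadjusted p under 0.05 by the edgeR test. The PE against ME table held none of the 32, but 19 had counts in both groups through other tables, and their log2 fold changes were -0.14 to 0.13 (median -0.05). Of the 22 translation genes outside the table, 0 had an unadjusted p under 0.05 by the edgeR test, against 1.76% of such genes. Genes outside the table had not passed the authors' p of 0.05 for this pair, so this count was nearly fixed beforehand. The 19 ribosomal proteins had counts in both groups because ME and PE were each listed against the same control, PC or, for RPS2, MC. Similar levels in ME and PE are thus not an independent result. RPL36A had a log2 fold change of -0.02 (95% confidence interval -0.58 to 0.54) and RPL7 of -0.03 (interval -0.59 to 0.53), so that these libraries leave room for differences of about that size. The near-zero values hold for TMM factors. With mapped reads alone all 19 were below 0 (-0.64 to -0.40, median -0.54), and with mapped reads less the 4 milk genes as well (-0.75 to -0.50, median -0.65). Both settings still gave 0 at that p, and the median of the table moved by -0.61 and -0.68. The 3 genes in the table were lower in PE than in ME at an unadjusted p under 0.05, against 45.2% of its genes, and none passed adjustment with edgeR (adjusted p = 0.772 to 0.957) or DESeq2. EIF3D, the eIF3 subunit that can bind caps of selected mRNAs, had 45.8, 37.0 and 50.6 CPM in PE, against 62.0, 62.1 and 85.5 CPM in ME (log2 fold change -0.65, SE 0.23). EIF4E3 had 2.82, 1.70 and 2.56 CPM in PE, against 3.95, 4.56 and 2.74 CPM in ME, with overlap (log2 fold change -0.66, SE 0.27). The number of genes lower at p under 0.05 was 0 without PE replicate 2 and 1 without PE replicate 1 or ME replicate 2.

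In Majorera goats, the table for ME against MC held RPS2 and EEF1A2 only. RPS2, a small subunit protein near the mRNA entry, had 457, 478 and 518 CPM in ME, against 206, 350.1 and 364 CPM in MC (log2 fold change 0.66, SE 0.29, unadjusted p = 0.0507, adjusted p = 0.485 by edgeR, where 0.0397% of all genes passed). Its log2 fold change was 1.53 with mapped reads alone (adjusted p = 0.0464) and 1.23 with mapped reads less the 4 milk genes (adjusted p = 0.118), the median of the table moving by 0.88 and 0.59. All ME libraries were above all MC libraries, as for 35.1% of the table, and MC replicate 1 was the lowest. Outside this table, RPL36A had a log2 fold change of 0.59 (SE 0.19, unadjusted p = 0.0148), EEF1D of 0.55 (SE 0.21, unadjusted p = 0.0304), RPL7 of 0.07 (SE 0.22) and EIF4EBP2 of -0.05 (SE 0.34), and 5.50% of all genes with counts from other tables had a p under 0.05. With mapped reads alone these 4 values were 1.43 for RPL36A and 1.38 for EEF1D (adjusted p = 0.0402 and 0.0421), 0.94 for RPL7 (adjusted p = 0.203) and 0.68 for EIF4EBP2 (adjusted p = 0.414). All ME libraries were then above all MC libraries in each. Of the 1779 genes of the table, 821 were higher without overlap on that scale and 105 lower. With mapped reads less the 4 milk genes the 4 values were 1.15, 1.10, 0.65 and 0.43, none passing adjustment. The number of the 2 listed genes higher at that p was 1, against 44.4% of the table, and it was 2 with the DESeq2 Wald test, where EEF1A2 passed adjustment (adjusted p = 0.0140, 1.32% of all genes).

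PE libraries against MC, again a contrast of breed and diet together, gave 4 higher genes and 1 lower gene at an unadjusted p under 0.05, against 42.5% and 49.8% of the table, with 0 after adjustment by edgeR (adjusted p = 0.162 to 0.296; 0.102% of all genes passed) or DESeq2. RPS2 had 509, 520.1 and 563 CPM in PE (log2 fold change over MC 0.79, SE 0.26). RPL7L1 had 9.63, 7.96 and 9.28 CPM in PE, against 6.19, 5.03 and 6.67 CPM in MC (log2 fold change 0.59, SE 0.17, unadjusted p = 0.00678). EIF2S2, the beta subunit of the factor that brings the initiator tRNA, went the other way, with 5.62, 6.09 and 7.32 CPM in PE, against 7.83, 9.35 and 10.2 CPM in MC (log2 fold change -0.52, SE 0.17, unadjusted p = 0.0146). These genes and RPL36A were apart between the groups, as were 32.6% of the table on the higher and 37.9% on the lower side. With mapped reads less the 4 milk genes the counts were 0 higher and 0 lower, in a fit whose spread was taken wholly from other genes. The number of higher genes was 1 without MC replicate 1 and 2 without PE replicate 3, and the lower gene was lost without PE replicate 1 or MC replicate 3.

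Between the control groups, the table for PC against MC held RPL7, lower in PC, and EIF4EBP2, higher in PC. RPL7 had 95.6, 177 and 127 CPM in PC, against 187, 225 and 194 CPM in MC (log2 fold change -0.60, SE 0.27, unadjusted p = 0.0488, adjusted p = 0.997 by edgeR), 53.6% of the table being lower at that unadjusted p and 0.00691% of all genes passing adjustment. With mapped reads less the 4 milk genes the value was 0.18, and the p was above 0.05 when any of PC replicates 1 and 3 or the MC libraries was left out. RPL36A, outside this table, had a log2 fold change of -0.51 (SE 0.27, unadjusted p = 0.0863), which was -0.17 with mapped reads alone and 0.24 less the 4 milk genes, and RPL7L1 had 6.32, 5.63 and 6.01 CPM in PC, against 6.19, 5.03 and 6.67 CPM in MC.

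The genes counted in all 12 libraries allow the diet effect to be fitted over both breeds, with breed as a term. Of these 5 genes EEF1D and RPL36A rose under feed restriction (edgeR quasi-likelihood test, Benjamini-Hochberg over 15221 genes). EEF1D, the delta subunit of the exchange factor that recharges eEF1A with GTP, had 99.7, 86.5 and 115 CPM in ME and 112, 75.2 and 118 CPM in PE, against 61.6, 63.7 and 79.7 CPM in MC and 54.4, 66.9 and 53.6 CPM in PC (log2 fold change 0.68, SE 0.15, adjusted p = 0.0328). The restricted libraries were above the control libraries of their breed without overlap. RPL36A had 54.9, 54.5 and 71.9 CPM in ME and 55.7, 48.0 and 75.4 CPM in PE, against 38.1, 41.7 and 40.4 CPM in MC and 17.4, 38.3 and 28.9 CPM in PC (log2 fold change 0.84, SE 0.20, adjusted p = 0.0356), again without overlap within either breed. Of the 1408 genes fitted, 16.3% were higher and 14.8% lower after adjustment, all of them genes that a table had listed. EEF1D and RPL36A had been listed for PE against PC, PE against MC and ME against PC, each a restricted group over a control group. Their diet calls thus reuse values that selected them. RPL7 had a log2 fold change of 0.36 (SE 0.18, unadjusted p = 0.0749) and did not pass. Before adjustment 3 of the 5 genes had a p under 0.05, all of them higher under restriction, as had 39.4% of the 1408.

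Both calls depended on single libraries. EEF1D lost its call in 8 of the 12 fits that left out 1 library (adjusted p = 0.0198 to 0.0822), namely without MC replicate 1 or 2, ME replicate 3, PE replicate 1 or 3, or any PC library. RPL36A lost it in 7 (adjusted p = 0.0359 to 0.0856), without any MC library, ME replicate 3, PE replicate 1 or 3, or PC replicate 3. With mapped reads alone both calls held (adjusted p = 0.0234 for EEF1D and 0.00643 for RPL36A), and with mapped reads less the 4 milk genes both were lost (unadjusted p = 0.219 for EEF1D and 0.0714 for RPL36A). In the fit less the milk genes the spread was taken wholly from other genes, and that of EEF1D and RPL36A between goats did not enter. PE and PC overlapped in both genes with mapped reads alone. For EEF1D, PE replicate 2 was then at 48.2 CPM and PC at 55.6 to 60.4 CPM. For RPL36A, PE replicate 2 was at 30.7 CPM and PC at 18.9 to 34.6 CPM.

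**Figure D4:**
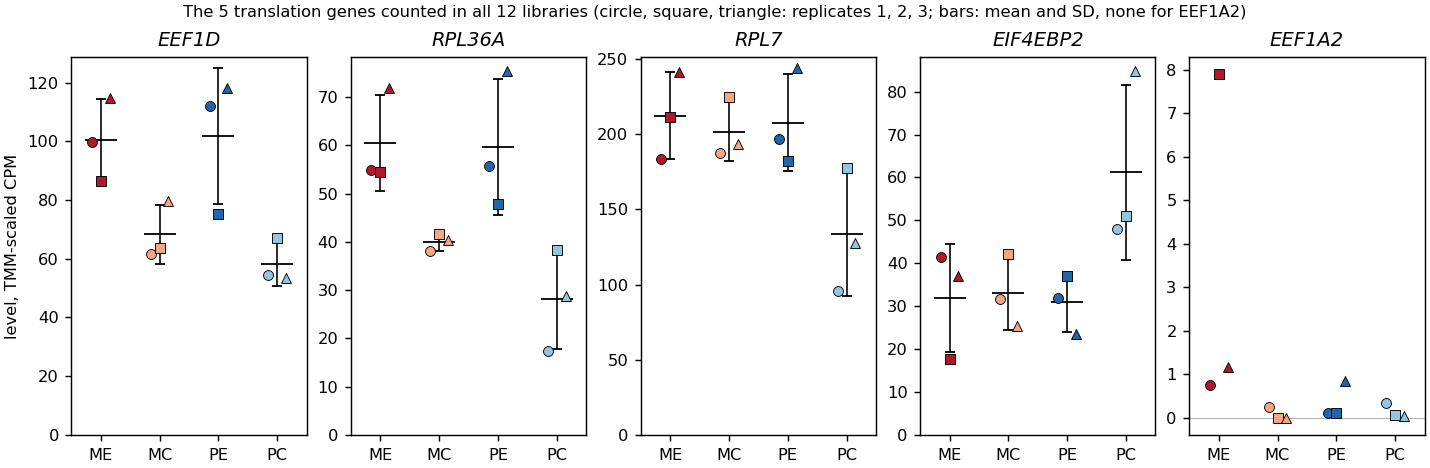
Levels (y axis, TMM-scaled CPM, a separate linear scale for each gene) of the 5 translation genes counted in all 12 libraries, by group (x axis), with a point for each library and bars for mean and SD except for EEF1A2. For EEF1D and RPL36A the ME points lie above MC and the PE points above PC, EIF4EBP2 is highest in PC, and EEF1A2 is highest in ME replicate 2.

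Ratios between these genes within a library do not depend on the scaling. The ratio of RPL36A to RPL7 counts was 0.299, 0.258 and 0.298 in ME, against 0.203, 0.186 and 0.209 in MC, and 0.282, 0.263 and 0.310 in PE, against 0.182, 0.216 and 0.226 in PC. Every restricted library was thus above every control library of either breed. Among the 6 ratios that EEF1D, RPL36A, RPL7 and EIF4EBP2 allow, this was the only ratio without overlap in both breeds. The ratio of EEF1D to RPL7 overlapped in both, with 0.543, 0.409 and 0.475 in ME, against 0.329, 0.284 and 0.412 in MC, and 0.568, 0.413 and 0.485 in PE, against 0.569, 0.377 and 0.420 in PC. These ratios were examined after the levels had been seen and are given as a description.

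EIF4EBP2, which binds the cap-binding protein eIF4E and holds back initiation until mTORC1 phosphorylates it, was the only gene of the set that was lower than PC in the PE and ME tables. Its level was 41.4, 17.7 and 37.0 CPM in ME, against 31.7, 42.3 and 25.4 CPM in MC, and 32.0, 37.1 and 23.5 CPM in PE, against 47.9, 50.9 and 84.7 CPM in PC. Every PC library was above every library of the other groups, and those 3 groups overlapped. The log2 fold change was -0.99 (SE 0.28, unadjusted p = 0.00617, adjusted p = 0.140 by edgeR) for PE over PC, -0.93 (SE 0.37, unadjusted p = 0.0345, adjusted p = 0.291) for ME over PC and 0.89 (SE 0.28, unadjusted p = 0.00943, adjusted p = 0.715) for PC over MC, the 3 contrasts sharing the PC libraries. Higher levels at that unadjusted p were found for 38.4% of the genes of the PC against MC table. With mapped reads less the 4 milk genes the values were larger, -1.95 (adjusted p = 0.0249) for PE over PC, -1.26 (adjusted p = 0.217) for ME over PC and 1.70 (adjusted p = 0.0226) for PC over MC. In these fits the spread was taken wholly from other genes, and that of EIF4EBP2 between goats did not enter. Scaled by mapped reads alone the log2 fold changes were -1.13, -0.58 and 1.26, none passing adjustment. For ME over PC, p was 0.125 unadjusted with mapped reads alone and rose above 0.05 without ME replicate 2, ME replicate 3 or PC replicate 3.

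Relative to the summed counts of the 18 ribosomal proteins, EIF4EBP2 had 9.50, 4.22 and 7.42 counts per 1000 in ME and 7.59, 9.84 and 4.67 in PE, against 23.0, 14.9 and 33.4 in PC. This ratio is free of scaling, and the PC libraries were above all others. EIF4EBP2 and the 18 proteins had all been selected for differing from PC, on opposite sides. EEF1D, in contrast, had 22.9, 20.6 and 23.0 counts per 1000 in ME and 26.6, 19.95 and 23.4 in PE, against 26.1, 19.5 and 21.1 in PC, with overlap. Among the 9 kinases and binding proteins listed as regulators of initiation, EIF4EBP2 was the only gene found in a table.

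EEF1A2, the isoform of the tRNA-delivering factor that mammals express mainly in skeletal muscle, heart and neurons, had few counts outside ME, apart from PE replicate 3. Its raw counts were 30, 661 and 55 in ME, against 8, 0 and 0 in MC, and 5, 3 and 45 in PE, against 11, 2 and 1 in PC. The log2 fold change was 5.16 (SE 1.31, unadjusted p = 0.00428, adjusted p = 0.175 by edgeR) for ME over MC, 4.48 (SE 1.13, adjusted p = 0.159) for ME over PC and -3.15 (SE 1.10, adjusted p = 0.777) for PE over ME, and these fitted values depend on the prior count because of the low counts outside ME. Without ME replicate 2 they were 3.36, 2.68 and -1.34, and without PE replicate 3 the value for PE over ME was -4.99. Without MC replicate 1 the MC libraries left are all at 0, and no fold over MC is given. Over both breeds the diet effect was 3.40 (SE 1.05, adjusted p = 0.124). It passed with mapped reads alone (4.03, adjusted p = 0.000849) and less the 4 milk genes (3.33, adjusted p = 0.000154). So did PE over ME (-3.79, adjusted p = 2.25e-06, and -3.83, adjusted p = 0.000843) and ME over PC (5.29, adjusted p = 0.000429, and 4.28, adjusted p = 3.45e-07). In the fits of the diet effect and ME over PC less the milk genes, the spread was taken wholly from other genes. The same held for PE over ME with mapped reads alone. The spread of EEF1A2 between goats did not enter these p. EEF1A2 had been listed for ME against MC, ME against PC and PE against ME, so its fits reuse values that selected it. ME over MC passed with mapped reads alone (6.34, adjusted p = 0.0402) and not less the milk genes (5.99, adjusted p = 0.0936). ME replicate 2 also had the highest sum of macrophage markers, 297 CPM. The sum of 4 of the 20 skeletal muscle markers was 28.3, 26.1 and 39.8 CPM in ME, against 26.6, 45.9 and 83.6 CPM in MC. It was 12.04, 17.49 and 16.91 CPM in PE, below every ME library, and 32.06, 40.29 and 29.22 CPM in PC. Of these markers, DES had 7.052, 21.53 and 6.755 CPM in ME, against 13.83, 24.96 and 5.191 CPM in MC. Within ME, NEB and ASB11 were lowest in replicate 2. MYH2 was listed at 0 in ME replicate 1 and PE replicate 1. The part of macrophages or muscle in the EEF1A2 levels was not tested.

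Whether the breeds differed in their response could be tested for these 5 genes only. The interaction, as the ME over MC change minus the PE over PC change, was 3.84 (SE 1.98, unadjusted p = 0.0744) for EEF1A2, 0.94 (SE 0.47, unadjusted p = 0.0682) for EIF4EBP2, -0.56 (SE 0.35) for RPL7, -0.49 (SE 0.38) for RPL36A and -0.25 (SE 0.31) for EEF1D. The edgeR test called 0 of 5 after adjustment (0.071% of genes were higher) and 0 at an unadjusted p under 0.05 (7.81% of the 1408 genes were higher and 8.59% lower at that p), and DESeq2 had 1 at the unadjusted p, EEF1A2 (0.0409). Thus 26 ribosomal proteins were listed for Palmera and 1 for Majorera, but a difference between the breeds was not shown for the 2 ribosomal proteins that could be tested. The result depended on the scaling. With mapped reads alone the interaction was 1.81 (unadjusted p = 0.0013, adjusted p = 0.362) for EIF4EBP2 and 4.85 (unadjusted p = 0.00968, adjusted p = 0.718) for EEF1A2. Less the 4 milk genes it was 2.39 (adjusted p = 0.0477) for EIF4EBP2, which then passed, and 5.53 (unadjusted p = 0.0014, adjusted p = 0.103) for EEF1A2. The values of RPL7, RPL36A and EEF1D changed sign with mapped reads alone and with mapped reads less the 4 milk genes.

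Genes that build ribosomes were listed on the same side as the ribosomal proteins. Of 74 genes for ribosome biogenesis, 9 were in the ME against MC table and 9 were higher, and 13 were in the PE against PC table and 13 were higher at an unadjusted p under 0.05, none after adjustment by edgeR. In comparison, 44.4% of the table's genes were higher for ME against MC and 48.2% for PE against PC. The listed genes were 12.2% of the list in Majorera and 17.6% in Palmera, beside 11.8% and 15.3% of all genes tested. In Majorera the smallest p values were those of MYC, the transcription factor that drives ribosome production (log2 fold change 1.06, SE 0.21), NOP58, a core protein of snoRNPs (0.83, SE 0.19), and the helicase gene DDX18 (0.94, SE 0.24). In Palmera they were those of MPHOSPH10, of the small subunit processome (0.93, SE 0.21), RRN3, an initiation factor of RNA polymerase I (0.79, SE 0.19), and RRS1, of large subunit assembly (1.24, SE 0.36). The 7 genes counted in all libraries summed to 49.5, 60.1 and 45.6 CPM in ME, against 27.8, 35.3 and 31.5 CPM in MC, and 53.7, 35.4 and 47.5 CPM in PE, against 29.2, 30.5 and 24.9 CPM in PC. Over both breeds 4 of the 7 passed adjustment as higher, against 16.3% of the 1408 genes. They were RRN3, MPHOSPH10, NOP58 and NOLC1 (adjusted p = 0.00880 to 0.0412 by edgeR). All 4 had been listed for ME against MC and for ME against PC, so their diet calls reuse values that selected them. With mapped reads less the 4 milk genes 0 of the 7 passed, while all 7 stayed above 0. For PE against PC the direction turned under that scaling, with 3 of 13 above 0.

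Genes of mTORC1 signalling and the integrated stress response were listed in both directions, much as the tables themselves. Of 46 on the list, 7 were in the PE against PC table (4 higher and 3 lower at an unadjusted p under 0.05, where 48.2% and 44.9% of the table were) and 4 in the ME against MC table (1 higher and 1 lower). The listed genes were 15.2% and 8.7% of the list, beside 15.3% and 11.8% of all genes tested. PPP1R15A, the phosphatase subunit that restores initiation after stress, had log2 fold changes of 1.06 (SE 0.18) for ME over MC and 1.21 (SE 0.19) for PE over PC, and rose over both breeds (1.14, SE 0.12, adjusted p = 0.000988 by edgeR), though not with mapped reads less the 4 milk genes (adjusted p = 0.433). PPP1R15A had been listed for both of these pairs, so its diet call reuses values that selected it. In Palmera the stress gene DDIT3 had 0.95 (SE 0.27) and SESN1, a restrainer of mTORC1, -1.61 (SE 0.55), neither passing adjustment. In Majorera AKT1S1, a subunit that restrains mTORC1, had -0.73 (SE 0.20) and RPS6KA1 0.90 (SE 0.40), also without passing. Of the 22 cytosolic aminoacyl-tRNA synthetases, 1 was lower in PE (IARS, log2 fold change -0.64, SE 0.18) and 2 were in the ME against MC table with values of -0.68 and -0.71 (MARS and CARS). These were 4.55% and 9.09% of the list, beside 15.3% and 11.8% of all genes tested. Of 24 genes for release, recycling, poly(A) binding and mRNA surveillance, 3 were in the PE against PC table, with 2 higher at an unadjusted p under 0.05: FAU, whose product includes the small subunit protein RPS30 (log2 fold change 0.64, SE 0.23), and UPF3B (0.58, SE 0.23). The 3 genes were 12.5% of the list, beside 15.3% of all genes tested. The list of 24 had no gene among those listed for ME against MC, where 11.8% of all genes tested were listed.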

How the data were processed

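Stranded poly(A) RNA of 12 biopsies was sequenced as read pairs. The authors aligned reads to CHIR_1.0 with Bowtie2 2.2.3 and deposited expected counts per gene from RSEM 1.2.17, unnormalised, in 1 table for each pair of groups. The tables also hold log2 fold changes and p-values that the authors computed with edgeR 3.2.4; these were used only to see how genes were selected and how many had been tested. Enrichment sheets were not used. Columns were matched to samples by the animal code of the title.

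Counts were rounded and tested with the quasi-likelihood F test of edgeR 4.0.16 (limma 3.58.1, R 4.3.3), with DESeq2 1.42.0 as an alternative. Library sizes were mapped reads times TMM factors over 1998 rows of the study's raw-count supplement (24260 rows in all, the others not used here). The 846 rows reaching 1 CPM in 3 or more libraries gave the trend and prior of the dispersion. All p were two-sided, with the Benjamini-Hochberg adjustment taken over the genes that entered each comparison (14469 to 15221), and no fold threshold. Counts in the supplement served for scaling and spread only. Scripts were tested on simulated data, and figures used Python with matplotlib.

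Genes named were those counted in all libraries, the 3 with the smallest p in each direction of a comparison, members of paralog sets, and up to 3 of each list; other genes were named after their values were seen. Genes and lists were chosen with earlier results of these data known. Of the 43 gene identifiers, 42 matched a RefSeq table of another assembly, used for names only. No sequence was printed. Replicates are different goats, and their numbers do not pair samples. The values of 1 gene that the rule selects enter the counts and medians but are not reported here.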

Additional observations from a re-analysis of the deposited data

How the results depend on the processing

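With 3 goats a group and 0 calls after adjustment in the pairwise edgeR tests, counts at an unadjusted p under 0.05 moved with single libraries and with the scaling, the cause of which was not tested. The range over fits that left out 1 library was 7 to 29 genes higher for PE against PC, 7 to 28 higher and 0 to 1 lower for ME against PC, 1 to 2 higher for ME against MC, 0 to 1 lower for PC against MC, 1 to 4 higher and 0 to 1 lower for PE against MC, 0 to 2 lower for PE against ME, 3 to 5 for the diet effect (3 with all libraries) and 0 to 1 for the interaction.

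With mapped reads alone, 1 gene was higher for PE against PC, 2 were higher and 2 passed adjustment for ME against MC, 0 were lower and 23 passed for ME against PC, 0 were lower for PC against MC and for PE against MC, 1 passed for PE against ME, and 2 (EIF4EBP2 and EEF1A2) had an interaction. With mapped reads less the 4 milk genes, 0 were higher and 1 passed for PE against PC, 2 were higher for ME against MC, 1 was higher and 1 passed for ME against PC, 0 were lower and 1 passed for PC against MC, 0 were higher and 0 lower for PE against MC, 1 passed for PE against ME, 1 had a diet effect, and the same 2 had an interaction, which passed adjustment for EIF4EBP2. In the same setting the median of the PE against PC genes turned to -0.18 and RPL7 for PC against MC to 0.18. EIF1AX, EIF5B and EIF4A3 turned to -0.33, -0.32 and -0.41 for PE against PC. The interaction of EEF1D was 0.55 and 1.18, of RPL36A 0.29 and 0.81, and of RPL7 0.27 and 0.82, with mapped reads alone and less the milk genes. With mapped reads alone, 929 of the 1779 genes of the ME against MC table were higher at the unadjusted p and 120 lower. For ME against PC these numbers were 1331 and 246 of 2282. In some fits under these library sizes the spread was taken wholly from other genes. With mapped reads alone this held for PE against PC, PE against MC and PE against ME. With mapped reads less the 4 milk genes it held for PE against PC, ME against PC, PC against MC, PE against MC and the diet effect.

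TMM factors without the translation genes gave 18 higher genes for PE against PC and 0 lower for PC against MC. The DESeq2 Wald test gave 2 higher and 1 passing gene for ME against MC, 2 passing for ME against PC, 1 passing for PE against PC and 1 interaction. The replicate numbers do not pair the goats (correlations of same-numbered libraries -0.32 to 0.23); with the replicate block the counts were 13 higher for PE against PC, 0 lower for PC against MC and 1 lower for PE against ME, and EEF1D lost its diet call (adjusted p = 0.0505). DESeq2 size factors, a filter above 100 counts, adjustment over all rows of the supplement, and TMM factors per pair of groups, the last chosen after seeing the data, moved no count of genes by over 1.5 times.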
